A study of Homo sapiens with 6 samples.

Results

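The genes described here are 10 early response genes: EGR1 and EGR3, IER2, IER3 and IER5, KLF4, KLF6 and KLF10, MYC, and IFRD1. They were taken by symbol from a deposited table of 12306 gene rows, and 9 of the 10 have a row; IER3, a regulator of cell survival, is not analysed here. Of the 9, 7 passed the filter on low values and were tested, and KLF4 and EGR3 lay under it. The table comes from RNA-seq of 92.1 cells, an established human uveal melanoma line that carries an activating GNAQ mutation, grown in RPMI-1640 with serum. One group of 3 libraries had DMSO vehicle and the other, also of 3, had 1 µM VS-4718, an inhibitor of FAK (focal adhesion kinase); both were collected after 2 h. All 6 libraries are of this 1 line. They are described as independent, but no label names separate cultures, so p-values reflect only the variation among these 6 samples, part or all of which may be technical.

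Early response genes are transcribed within minutes of a signal, without new protein synthesis, and many of their RNAs are short-lived. Growth factors, integrin adhesion and stress reach them largely through ERK and p38 kinases, which act on serum response factor (SRF) and its ternary complex partners at CArG boxes, and on CREB family proteins at cyclic AMP response elements (CRE). FAK is one of the kinases that carries adhesion signals into these routes. EGR and KLF proteins are zinc finger transcription factors, MYC drives growth and ribosome production as a dimer with MAX, IER proteins are small regulators of transcription, stress and survival, and IFRD1 is a transcriptional co-regulator.

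Sequences are shown for EGR1 and IFRD1, the 2 members with the smallest p-values, and for IER2. They are RefSeq sequences on GRCh38.p14, plus strand, and capitals mark matches to the CArG box, to the CRE (TGACGTCA) or to its half-site (CGTCA), each searched on both strands. For EGR1 all 250 bases before the gene start are given (chr5:138465229-138465478); for IFRD1 30 bases around its CRE (chr7:112450397-112450426) and for IER2 30 bases around its half-site (chr19:13150259-13150288) are given.
EGR1: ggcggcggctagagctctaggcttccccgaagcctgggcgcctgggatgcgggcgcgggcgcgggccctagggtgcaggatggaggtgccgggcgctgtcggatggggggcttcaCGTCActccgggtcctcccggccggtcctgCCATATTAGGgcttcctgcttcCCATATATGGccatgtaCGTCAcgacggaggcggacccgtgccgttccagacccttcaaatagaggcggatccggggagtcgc
IFRD1: cgcccacagagTGACGTCAggtggcggtat
IER2: cacccccgccccCGTCAcgccaccatcgag
EGR1 held 2 CArG boxes, whose first bases lay 105 and 83 bases before the start, and 2 CRE half-sites, at 135 and 66. The CArG box was present in 1.16% of the 35116 RefSeq windows of 250 bases and the half-site in 21.2%. IFRD1 held the full CRE 52 bases before 1 of its RefSeq starts, and the same CRE lay 100 bases before another. This element, which contains the half-site, was in 1.65% of windows. That share is per window, and IFRD1 had several windows. The IFRD1 stretch lies within the span of the gene, after the start of its longer transcripts. Of the 250 bases before either of these starts, 143 are exonic in GENCODE transcripts of IFRD1. No CArG box was found in the windows of IFRD1, IER2, IER5, KLF4 or KLF6. KLF4 held 2 CRE half-sites, at 247 and 210 bases before its start. KLF4 and KLF6 each held 1 E-box (CACGTG, in 6.35% of windows) and 1 EGR-type site (GCGNGGGCG, in 8.42%), and EGR1 held 1 EGR-type site of its own. The KLF4 window lies within the span of the gene, and 72 of the 250 bases of the KLF6 window are exonic in KLF6. These matches describe letters only. The RefSeq table used here gave 9 windows, for 6 of the 10 genes.

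Most of these genes are compact. The span in GENCODE 29 on GRCh38 was 3826 bases for EGR1 (chromosome 5, 138465490 to 138469315), 4188 for IER5 (chromosome 1, 181088712 to 181092899), 4494 for IER2 (chromosome 19, 13150415 to 13154908), 5631 for KLF4 (chromosome 9, 107484852 to 107490482) and 9286 for KLF6 (chromosome 10, 3775996 to 3785281). On chromosome 8, EGR3 spanned 5644 bases, MYC 6001 and KLF10 7124. IFRD1 was the exception at 58050 bases (chromosome 7, 112422968 to 112481017). The median span was 5644 bases for the 9 genes and 38557 for the 7315 tested rows matched to a human protein-coding gene. The pentamer ATTTA, the core of AU-rich decay elements, occurred in the 3′ untranslated region of 8 of the 9, against 73.6% of the tested genes. Its density was 8.92 per kilobase in IFRD1 and 8.40 in MYC, above 98% of tested genes in both, but 0.810 in EGR1, and IER2 had none. All 10 are protein coding, and the expression values are per gene row, not per exon.

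Expression is given as log2 of a TPM-like unit. The unit is taken to be scaled for transcript length, which was not tested, and the order of level below rests on this. MYC had the highest level, at 6.93 ± 0.06 (SD, n = 3) log2 units in vehicle, above 91.4% of all rows. IFRD1, IER5, IER2 and KLF6 followed at 6.03, 4.83, 4.12 and 3.75. Each of these neighbours stood in the same order in all 6 libraries. KLF10 (3.44 ± 0.43) overlapped KLF6 in vehicle, and with VS-4718 it overlapped EGR1, which stood at 1.80 ± 0.03 in vehicle. KLF4 (0.02 ± 0.09) and EGR3 (-1.66 ± 0.55) were lowest, near 1.01 and 0.332 TPM-like units. Many row names are mouse symbols written in capitals, and the transcript set behind them is not stated. A level is therefore that of the row and not surely that of the human gene, and the order given is one of rows.

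**Figure D1:**
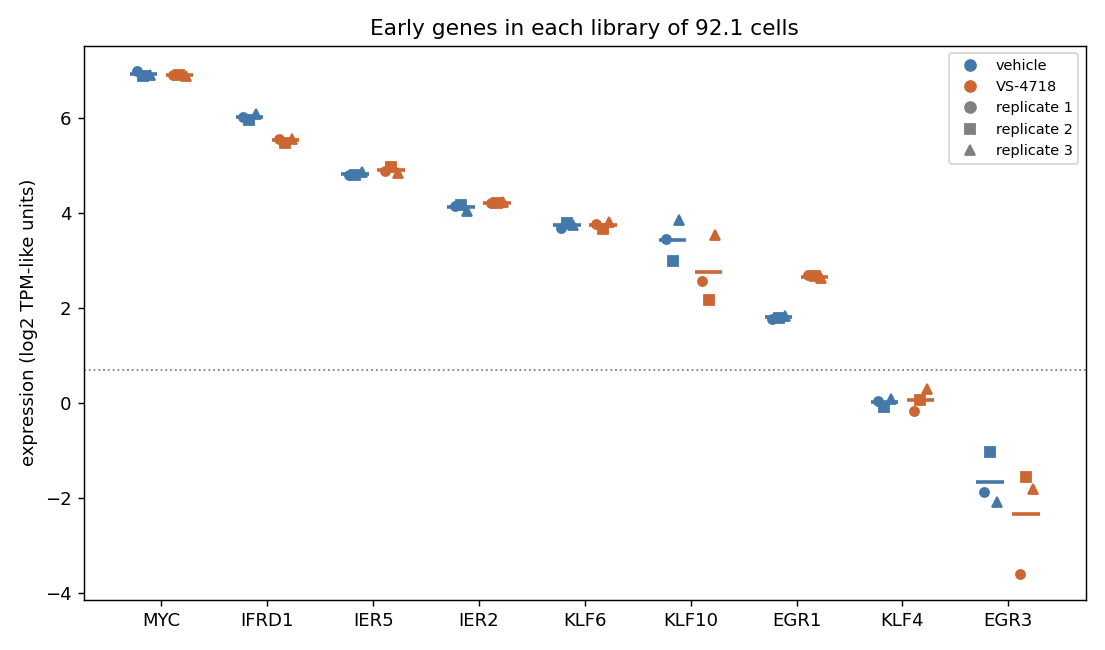
Expression of the 9 genes with a row, in log2 TPM-like units, in each vehicle (blue) and VS-4718 (orange) library; marker shape is the replicate number, bars are group means and the dotted line is the filter at a mean of 0.70. EGR1 is higher and IFRD1 lower in all 3 VS-4718 libraries, while KLF10 spreads widely in both groups.

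None of the 7 tested genes passed the test across all rows. The genes, and the lists further below, were chosen with earlier results of these data known, so their counts are a description. EGR1 had the largest positive difference, IFRD1 and KLF10 had negative ones, and IER2, IER5, KLF6 and MYC differed by 0.10 log2 units or less. By limma with Benjamini-Hochberg adjustment 0 of 7 passed, against 12 of 9229 rows (0.13%); at an unadjusted p under 0.05 there were 2, against 9.76% of rows: EGR1 (higher, against 3.02% of rows) and IFRD1 (lower, against 6.74%). The groups did not overlap for 3 of the 7 (EGR1 and IER2 higher, IFRD1 lower), against 16.4% of rows, 5.15% higher and 11.2% lower. Among the 7, 4 means were higher and 3 lower, with a median difference of 0.0037; over all tested rows 41.8% were higher and 58.2% lower, and the median was -0.03.

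EGR1 encodes the founding member of the EGR factors, induced by SRF and ternary complex factors after ERK activation. Its values were 1.78, 1.79 and 1.84 log2 units in vehicle and 2.69, 2.67 and 2.63 with VS-4718, that is 3.49 ± 0.07 and 6.33 ± 0.14 TPM-like units. All 3 VS-4718 libraries lay above all vehicle libraries, with a gap of 0.79 between the nearest, against a range within either group of at most 0.06. The difference was 0.86 (SE 0.11, 95% interval 0.60 to 1.12), a ratio of geometric means of 1.81 (limma, adjusted p = 0.072). Only 2.0% of tested rows had a smaller spread within groups than EGR1, and its difference was larger in size than that of 98.8% of rows. It ranked 14th by p, just beyond the 12 rows that passed. In bulk RNA a change in every cell and a change in only some of them cannot be told apart.

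EGR3, an EGR factor of muscle spindle and lymphocyte development, was too low to be tested. It had -1.88, -1.04 and -2.08 log2 units in vehicle and -3.62, -1.56 and -1.82 with VS-4718. The groups overlapped; the difference of means was -0.67, and it was -0.03 without VS-4718 replicate 1, the lowest library. In a fit without the filter EGR3 had an SE of 0.62 (limma, adjusted p = 0.79).

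Of the other EGR genes, EGR2 was tested and did not pass, and EGR4 lay under the filter. EGR2, known for myelination and also an early gene, had 1.50, 1.22 and 1.83 in vehicle and 0.07, 0.22 and 1.45 with VS-4718. VS-4718 replicate 3 lay within the vehicle values, so the groups overlapped (difference -0.94, SE 0.39; limma, adjusted p = 0.51). EGR4 had 0.183 TPM-like units in vehicle and 0.344 with VS-4718, and its groups did not overlap. The corepressors that EGR proteins bind, NAB1 and NAB2, had differences of -0.10 (SE 0.08) and -0.07 (SE 0.06). Among the EGR corepressors and the SRF, ternary complex and CREB genes, 0 of the 10 tested passed and 1 had an unadjusted limma p under 0.05 (against 9.76% of rows); 3 means were higher and 7 lower (58.2% of all rows were lower), with a median of -0.07. ETS1, an ETS factor, had the smallest p of them, with 7.35 ± 0.07 in vehicle and 7.16 ± 0.06 with VS-4718 (limma, adjusted p = 0.38). ELK4, a ternary complex factor, had a difference of -0.25 (SE 0.19) and SRF itself one of 0.08 (SE 0.11).

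IFRD1, also called TIS7, is a co-regulator of transcription in differentiation and regeneration. Its values were 6.03, 5.97 and 6.09 log2 units in vehicle and 5.57, 5.48 and 5.57 with VS-4718. All 3 VS-4718 libraries lay below all vehicle libraries, with a gap of 0.40. The difference was -0.49 (SE 0.06, 95% interval -0.64 to -0.34), a level 28.7% lower (limma, adjusted p = 0.072). Its p ranked 13th. IFRD2, its paralog, had 4.72, 4.70 and 4.61 in vehicle and 4.26, 4.60 and 4.44 with VS-4718. These groups did not overlap as deposited but did after median scaling between libraries, and the difference was -0.25 (SE 0.10; limma, adjusted p = 0.51).

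**Figure D2:**
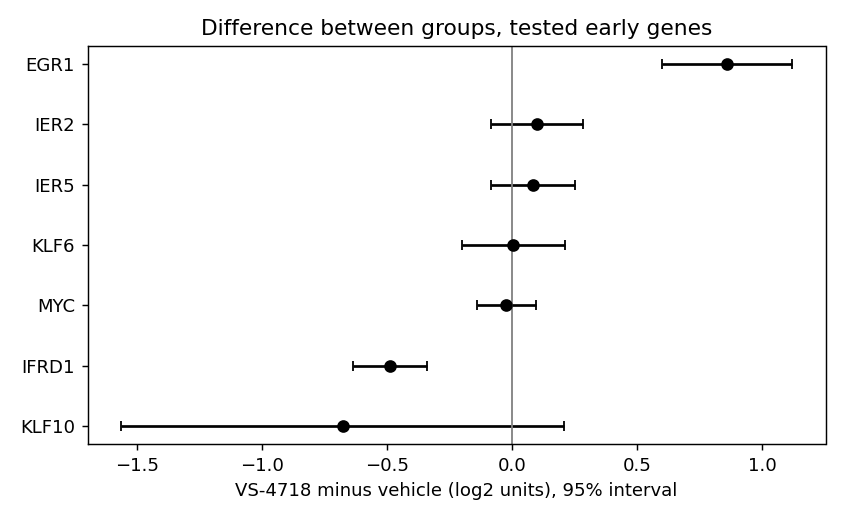
Difference of group means, VS-4718 minus vehicle, in log2 units for the 7 tested genes; points are limma estimates and bars 95% intervals without adjustment for multiple tests. The intervals of EGR1 (0.60 to 1.12) and IFRD1 (-0.64 to -0.34) leave out 0 and the other 5 include it.

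IER2 and IER5 had slightly higher means with VS-4718. IER2, a nuclear early response protein, had 4.15, 4.18 and 4.04 in vehicle and 4.22, 4.22 and 4.23 with VS-4718. The groups did not overlap, but the gap between them was 0.04 and the range in vehicle 0.13. The difference was 0.10 (95% interval -0.08 to 0.28; limma, adjusted p = 0.71). IER5, which promotes activity of the heat shock factor HSF1, had 4.81, 4.81 and 4.86 in vehicle and 4.89, 4.98 and 4.85 with VS-4718. These groups overlapped (difference 0.08, 95% interval -0.08 to 0.25; limma, adjusted p = 0.73). IER5L, the IER5 paralog, had 3.30 ± 0.11 and 3.49 ± 0.09 (SD, n = 3; limma, adjusted p = 0.61).

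HSF1 and heat shock genes were looked at beside IER5. None of the 12 tested, IER5 included, passed or reached an unadjusted limma p under 0.05 (9.76% of rows did), and 9 means were lower (58.2% of all rows were) with a median of -0.03, the same as over all rows. Of these, HSP90AB1, a cytosolic chaperone, had a difference of -0.06 (SE 0.05), CHORDC1, a co-chaperone, -0.21 (SE 0.18), and HSPA1B, an inducible HSP70, 0.04 (SE 0.05). Early NF-κB targets, the group that IER3 belongs to, had 0 of 6 tested past the threshold and 1 at an unadjusted limma p under 0.05 (against 9.76% of rows), with 3 means on each side (58.2% of all rows were lower). NFKBIA, the inhibitor that NF-κB induces, had 4.09 ± 0.04 in vehicle and 4.59 ± 0.12 with VS-4718 (limma, adjusted p = 0.18), with no overlap. RELB, an NF-κB subunit, had a difference of -0.37 (SE 0.16), NFKBIE -0.12 (SE 0.11) and NFKB2 0.12 (SE 0.12).

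Among the 7 tested KLF genes KLF10 had the largest spread within each group. KLF10, also known as TIEG1 for its early induction by TGF-β, had 3.47, 2.99 and 3.85 log2 units in vehicle and 2.57, 2.17 and 3.53 with VS-4718. VS-4718 replicate 3 lay within the vehicle values, and the groups overlapped. The difference was -0.68 (SE 0.37, 95% interval -1.57 to 0.21; limma, adjusted p = 0.61), and 96.0% of tested rows had a smaller spread within groups. It was -1.07 without VS-4718 replicate 3 (adjusted p = 0.33) and -0.39 without VS-4718 replicate 2 (adjusted p = 0.84).

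KLF6, a broadly expressed KLF, had 3.69, 3.80 and 3.76 in vehicle and 3.77, 3.67 and 3.81 with VS-4718. The values interleaved, with a difference of 0.0037 (95% interval -0.20 to 0.21; limma, adjusted p = 0.99), whose sign depended on the library left out. KLF4, a pluripotency and differentiation factor, had 0.05, -0.09 and 0.09 in vehicle and -0.17, 0.07 and 0.29 with VS-4718. It was under the filter, and the groups overlapped.

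Of the KLF family 13 genes had a row and 7 were tested; 0 passed and 0 reached an unadjusted limma p under 0.05 (9.76% of rows did), with 5 means higher (against 41.8%) and 2 lower. KLF11, the TIEG paralog of KLF10, had 3.24 ± 0.40 and 3.58 ± 0.10 (SD, n = 3; limma, adjusted p = 0.62). KLF13 had a difference of 0.23 (SE 0.27) and KLF12 one of -0.06 (SE 0.14). Of the 6 KLF genes under the filter, KLF7 (difference -0.91) and KLF16 (-0.78) were lower without overlap, as were 11.2% of tested rows. The groups overlapped for KLF2, KLF4, KLF5 and KLF14. Early TGF-β targets, KLF10 and KLF11 included, had 0 of 12 tested past the threshold and 2 at an unadjusted limma p under 0.05 (against 9.76% of rows), with 8 means higher (against 41.8%), 4 lower and a median of 0.05. TGIF1, a repressor of SMAD transcription, had 5.16 ± 0.12 and 5.41 ± 0.11 (limma, adjusted p = 0.47). ID3, an inhibitor of basic helix-loop-helix factors, had a difference of -0.21 (SE 0.07).

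MYC had 7.00, 6.90 and 6.90 log2 units in vehicle and 6.90, 6.92 and 6.90 with VS-4718. All 3 VS-4718 values lay within the vehicle range. The difference was -0.02 (SE 0.05, 95% interval -0.14 to 0.09; limma, adjusted p = 0.89), and after median scaling its sign changed. The interval leaves out a change in either direction larger than 0.14 log2 units at the 95% level.

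Partners of MYC were also measured, in lists chosen with earlier results of these data known. In the MYC and MAX network 0 of 9 tested genes passed, 3 had an unadjusted limma p under 0.05, all lower, against 6.74% of all rows lower and 9.76% in either direction, and the median was -0.21, against -0.03. MLX, which pairs with MXD and Mondo proteins, had 6.19 ± 0.13 in vehicle and 5.89 ± 0.04 with VS-4718 (limma, adjusted p = 0.33). MAX, the obligate partner of MYC, had 6.44 ± 0.35 and 5.98 ± 0.10 (limma, adjusted p = 0.47). ZBTB17, the MIZ1 protein through which MYC represses genes, had a difference of -0.40 (SE 0.16), and MXD3, a MAX-binding repressor, one of 0.33 (SE 0.17). MYC target genes had 0 of 25 tested past the threshold, 4 at an unadjusted limma p under 0.05, all lower (against 6.74% of rows), 20 lower means (against 58.2%) and 5 higher, with a median of -0.09. RCC1, the Ran exchange factor, had a difference of -0.29 (SE 0.08), POLR1B, a subunit of RNA polymerase I, -0.41 (SE 0.14), NOP56, a nucleolar particle protein, -0.24 (SE 0.05), and NCL, nucleolin, -0.13 (SE 0.04). These 4, named for the smallest p in the list, were the only ones of the 25 whose groups did not overlap, against 11.2% of all rows without overlap and lower; limma's adjusted p lay between 0.25 and 0.42.

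Differences within a library were compared next, since a scaling factor of a library cannot move them. EGR1 minus IFRD1 was -4.25, -4.18 and -4.25 log2 units in vehicle and -2.88, -2.82 and -2.94 with VS-4718, a change of 1.35. EGR1 minus MYC was -5.22, -5.11 and -5.07 in vehicle and -4.22, -4.25 and -4.28 with VS-4718, a change of 0.88. EGR1 against IER2, IER5, KLF4 and KLF6 changed by 0.76 to 0.85. Against KLF10 and EGR3, whose libraries spread more, the changes were 1.54 and 1.53. In all 8 pairs the groups did not overlap, and all share the EGR1 values. EGR1 had the largest positive difference of these genes. Against genes that differed little or were lower, the lack of overlap follows from EGR1 itself, so the pairs are not separate results. The exact two-sided permutation p was 0.1 in each pair, also when adjusted over the 8; this is the smallest that 3 libraries against 3 allow.

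**Figure D3:**
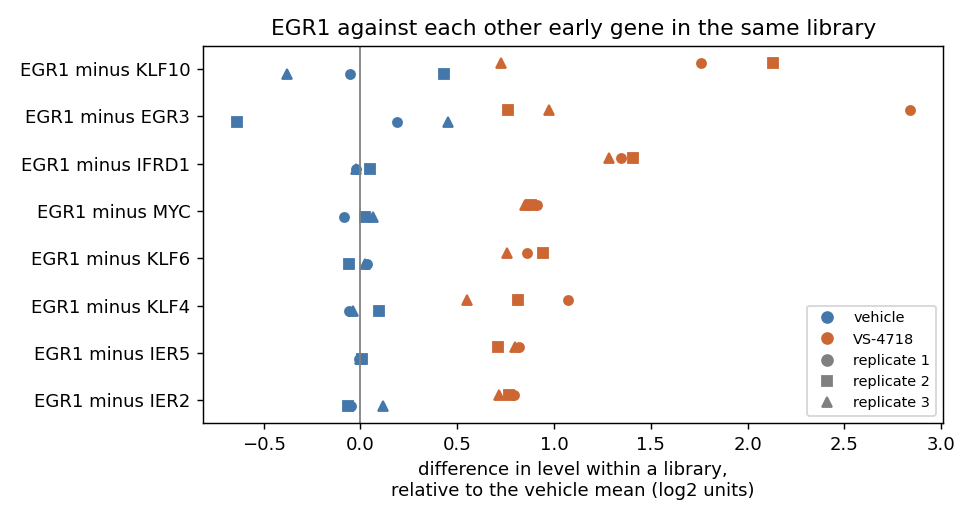
EGR1 minus each other gene in the same library, in log2 units relative to the vehicle mean of that pair; blue is vehicle, orange VS-4718, and marker shape the replicate number. All 3 VS-4718 libraries lie to the right of all vehicle libraries in the 8 pairs, most widely spread for KLF10 and EGR3.

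The wider set of early response genes, a list drawn up with earlier results of these data known, showed values on both sides. Of 70 tested, 29 means were higher and 41 lower (58.6% lower, against 58.2% of all rows), with a median of -0.06, against -0.03. An unadjusted limma p under 0.05 was reached by 21 of the 70 (30%, against 9.76% of rows), 5 with a higher mean and 16 with a lower one. The groups did not overlap for 23 (32.9%, against 16.4%), 5 higher and 18 lower. As the list was drawn up with these values known, the counts are a description. CYR61, a secreted matrix protein, passed and fell by 0.71 log2 units (SE 0.07; limma, adjusted p = 0.023). It was the only 1 of the 70 to pass, and limma's adjusted p was between 0.091 and 0.17 when any 1 library was left out. CYR61 also did not pass with the replicate block (limma, adjusted p = 0.20) or in limma without trend (0.078). JUN, an AP-1 subunit, had 3.11, 3.28 and 3.25 in vehicle and 2.11, 1.76 and 1.43 with VS-4718 (difference -1.45, SE 0.18; limma, adjusted p = 0.072). BTG1, an antiproliferative gene, had a difference of 0.51 (SE 0.10) without overlap, like NFKBIA. FOS, which is controlled by SRF as EGR1 is, had 2.12, 2.24 and 2.22 in vehicle and 2.21, 1.99 and 2.25 with VS-4718, with overlap and a difference of -0.05 (SE 0.13; limma, adjusted p = 0.92).

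**Figure D4:**
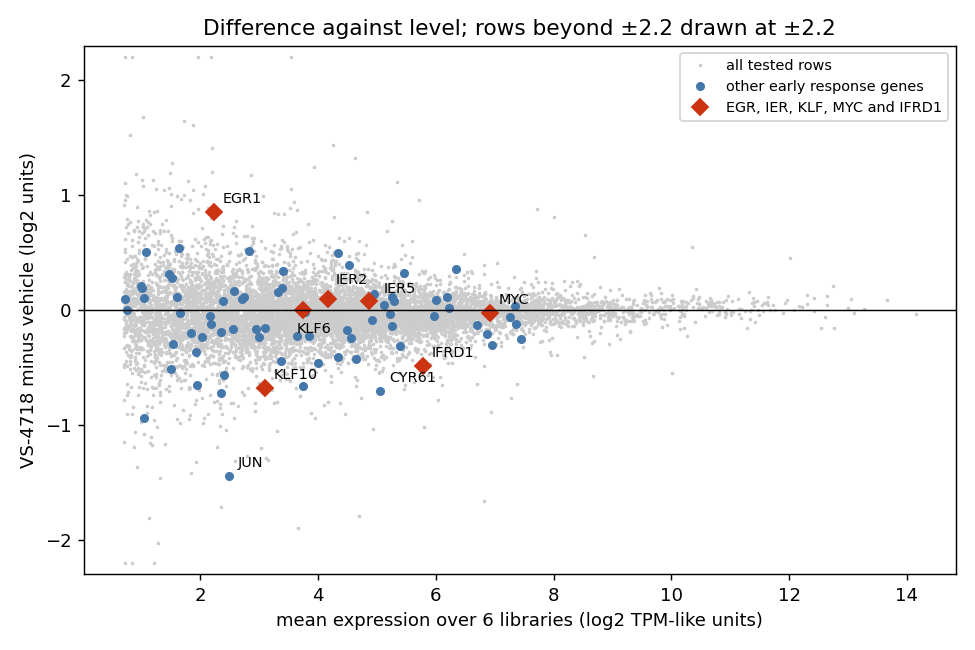
Difference of group means (VS-4718 minus vehicle, log2 units) against mean expression over the 6 libraries (log2 TPM-like units) for the 9229 tested rows (grey), the 70 other early response genes (blue) and the 7 tested genes described here (red); rows beyond the axis are drawn at its edge. EGR1 lies at 0.86 and JUN at -1.45 at similar levels, and MYC lies next to 0.

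Rows with the most similar pattern were found by the root mean square difference from a gene over the 6 libraries, after the mean of each row was taken off, among 7224 rows with a current human symbol. For EGR1 they were PDK4, a kinase that restrains pyruvate dehydrogenase (0.077 log2 units), CLK3, a kinase of splicing factors (0.081), and PNRC1, a nuclear receptor coactivator (0.11), where the median over rows was 0.47. These rows were picked for likeness to EGR1 over the same libraries, so a change close to that of EGR1 follows from the choice. PDK4 and CLK3 rose by 0.81 each (limma, adjusted p = 0.014 and 0.045). With a library left out CLK3 did not pass (adjusted p between 0.13 and 0.25), and PDK4 passed only without vehicle replicate 2 (0.043, otherwise between 0.076 and 0.13). Neither passed with the replicate block or in limma without trend, and CLK3 did not pass without the filter (limma, adjusted p = 0.060). For IFRD1 they were KLHL9, a ubiquitin ligase adaptor (0.035), FAM193A (0.043) and UNC119B, a lipid-binding trafficking protein (0.051), against a median of 0.27. These 3 had differences of -0.44, -0.45 and -0.45, which again follow from the choice, and none passed. For KLF10 they were PCCA, a mitochondrial carboxylase subunit, KCTD7, and EGR2, each at 0.22 against a median of 0.58. In all 3, as in KLF10, the highest of the vehicle values and the highest of the VS-4718 values were those of replicate 3. As the 3 rows were picked for likeness to KLF10, this is no separate sign of a replicate pattern.

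**Figure D5:**
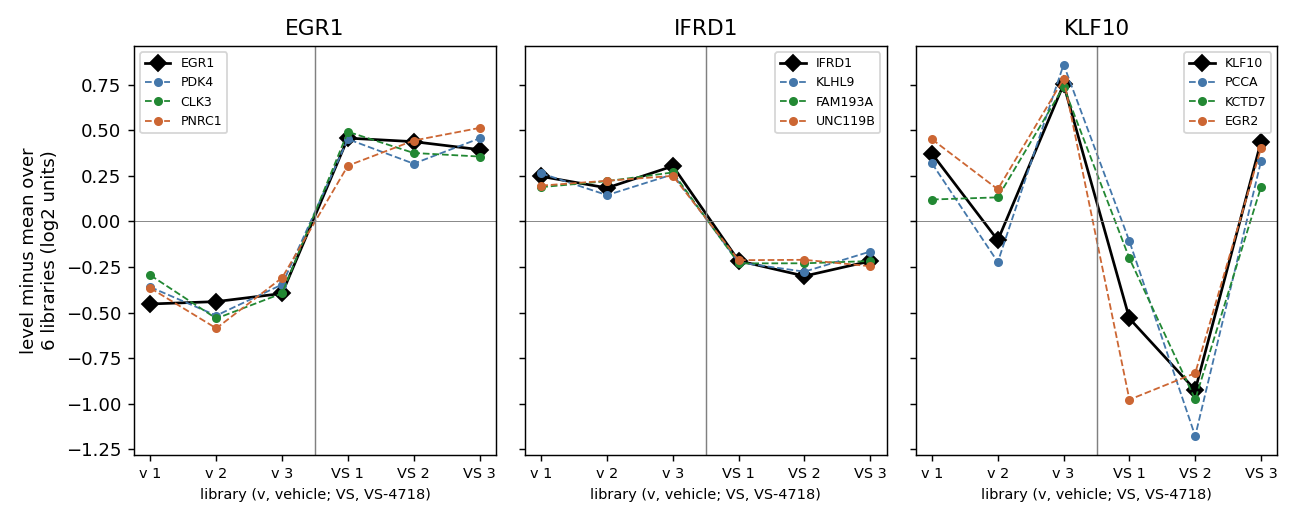
Level in each library minus the mean over 6 libraries (log2 units) for EGR1, IFRD1 and KLF10 (black diamonds) and the 3 rows closest to each (coloured circles); v is vehicle, VS is VS-4718, and lines only join the points of a row. EGR1 and IFRD1 separate by group, while KLF10 and its closest rows, picked for this likeness, are high in replicate 3 of both groups.

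Libraries as a whole were alike. Spearman correlations across genes lay between 0.984 and 0.988 for all pairs of libraries, and since TPM-like units hold no read count, library depth is unknown. The lineage markers PMEL (12.21 ± 0.07 in vehicle, 12.24 ± 0.09 with VS-4718) and SOX10 (8.20 ± 0.04 and 8.17 ± 0.04) were high in both groups, while MLANA, TYR and GPNMB lay below 1 TPM-like unit. Of the 12 melanocyte markers 10 had a row, and their summed level ran from 7307 to 7892 TPM-like units in vehicle and from 7097 to 7774 with VS-4718. The 5 fibroblast rows, 2 immune rows and 1 epithelial row were all below 1 unit on average. The 3 endothelial rows summed to between 21.9 and 26.6 units in vehicle and 23.9 and 28.8 with VS-4718. As the transcript set is not stated, these are levels of rows, and a low or absent row need not mean low RNA of the human gene.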

How the data were processed

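RNA of 92.1 cells was sequenced in 6 libraries, 3 per group. The submitters' processing notes name kallisto, without a version, and GRCh38; for the index, annotation and filters the sources used here give nothing. The values the authors deposited are on a log2 scale, 1 per gene row and library. They are called TPM-like here because on the linear scale the columns sum to between 836527 and 840714. A unit scaled only for library depth could give such sums too, so scaling for transcript length is assumed and was not tested.

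The whole table was fitted with limma 3.58.1 in R 4.3.3 (limma-trend, group as the only term, values as deposited). Rows with a mean above the lowest 25% (over 0.70) were kept, 9229 of 12306. P-values are two-sided, adjusted by Benjamini-Hochberg over these rows, with a threshold of 0.05; intervals are limma's 95%, unadjusted. A difference is VS-4718 minus vehicle in mean log2 values. The script was tested on simulated data.

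Of the rows, 9641 matched a human gene name and 2665 did not. Gene structures came from GENCODE 29, 1 coding transcript per gene (with a 3′ untranslated region of at least 100 bases where there is one, then the best principal rank, then the longest); promoters came from RefSeq (GRCh38.p14), 250 bases before a start.

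The members and lists were chosen with earlier results of these data known. Named beside the members were list genes past the threshold, up to 4 with the smallest p in each list with 3 or more tested genes, and the 3 rows most like each of the 3 members with the smallest p. EGR4, IFRD2, FOS, SRF, KLF2, KLF5, KLF7, KLF14 and KLF16 were named after their values were seen. The alternatives tried were each library left out in turn, a block for the replicate number, median scaling, no filter, a stricter filter (lowest 50% removed), limma without trend, robust variances, sample quality weights, a pseudocount of 1 and human names only.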

Additional observations from a re-analysis of the deposited data

How the results depend on the processing

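No member passed limma's threshold in any of the 15 alternatives, where adjusted p lay between 0.055 and 0.44 for EGR1 and between 0.052 and 0.32 for IFRD1. EGR1 kept a positive difference (0.71 to 0.89) and IFRD1 a negative one (-0.52 to -0.45); with the stricter filter EGR1 was too low to be tested. With a library left out KLF6 ran from -0.026 to 0.044 and MYC from -0.042 to 0.0074, and after median scaling MYC was 0.0093. The count of 12 called rows was 0 with the replicate block (793 at an unadjusted p under 0.05), 0 in limma without trend (910) and from 0 to 7 with a library left out. With the stricter filter, which tests fewer genes, 23 of 38 other early response genes had lower means, against 41 of 70. Same-numbered libraries had residual correlations across genes of 0.13, 0.05 and 0.03, and the third VS-4718 library was closest to vehicle replicate 2, so the numbers were not taken as pairs; with the replicate block KLF10 had an unadjusted limma p of 0.0080 and an adjusted p of 0.50. The cause of the lost calls in limma without trend was not tested. Depth is unknown and sets no limit that can be given.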
